A study of Mus musculus with 4 samples.

Results

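The 8 genes examined belong to cholesterol synthesis and its control by SREBP2, and were measured in tumor-associated macrophages (TAMs): Srebf2, Insig1, Hmgcs1, Idi1, Fdft1, Sqle, Lss and Cyp51. The 8 were taken as a list of mouse symbols, matched by Entrez gene number, out of 16739 genes listed in at least 1 library, and all 8 passed the filter on low counts that left 11302 tested genes. RNA was sequenced from CD45+ CD11b+ F4/80+ cells sorted from subcutaneous B16-F10 melanomas (a mouse melanoma line) at day 16 after inoculation of C57BL/6 mice aged 6 to 8 weeks. There were 2 wild-type (WT) libraries and 2 libraries labelled Trim24-/-, in which loxP-flanked Trim24 had been deleted through LysM-Cre, that is, Cre recombinase driven from the lysozyme M locus in myeloid cells, so any cell in the gate without Cre activity kept the gene. The sources do not say whether a library came from 1 mouse or from several, so the p-values measure the spread between these libraries.

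Cholesterol is built from acetyl-CoA through the mevalonate pathway, by way of isoprenoid units, squalene and lanosterol. SREBP2, the product of Srebf2, is a transcription factor made as a membrane protein of the endoplasmic reticulum. When sterols run low, its escort SCAP carries it to the Golgi, proteases release it there, and it switches on nearly every enzyme of the pathway together with genes of cholesterol uptake. When sterols are plentiful, INSIG proteins hold SCAP and SREBP2 back, and the LXR receptors turn on cholesterol export, a route that macrophages use to unload lipid taken up from dying cells.

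Values are given as CPM (expected counts relative to library total, scaled by edgeR's TMM method) for comparison of libraries, and as FPKM (per length of transcript) for comparison of genes. The library totals were 4476122 to 5172407 expected counts, at which 3 counts, a limit set by counting error only, are 0.604 to 0.637 CPM. The lowest expected count of any of the 8 genes was 85.01, so none lay near that limit. Markers of the sort and of macrophages were present in every library, with Ptprc (CD45), Itgam (CD11b), Adgre1 (F4/80), Csf1r, Cd68, Mertk and C1qa together at 8085 to 9757 CPM. Melanoma markers were also present, with Pmel, Mlana, Dct, Tyrp1, Tyr and Sox10 together at 738 to 781 CPM in WT and at 583 and 787 CPM in the others. Tyr, the most abundant of the 6 (410 and 423 CPM in WT, 374 and 495 CPM in the others), weighed most in these sums. The other 5 had lower means in the others than in WT, and none of the 6 was called. Mlana, Dct and Tyrp1, 3 of the 6, lay wholly below WT, against 23.0% of tested genes. Trim24 itself did not part the groups (5.84 and 2.08 CPM in WT, 3.40 and 0.41 CPM in the others), so these are called below the knockout-labelled pair. Xist was at 6.44 to 10.9 CPM in WT and at 255 to 436 CPM in the libraries labelled Trim24-deficient, and 4 Y-linked genes followed the reverse split, although the methods describe sex-matched mice, so genotype label and sex cannot be told apart in any difference below.

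In TAMs labelled Trim24-deficient, the group mean of all 8 genes lay above that in WT TAMs, by 1.06-fold for Srebf2 to 1.70-fold for Idi1, but none passed the test (0 of 8 called by edgeR with a threshold of 1.5-fold and 0.05 for adjusted p, against 0.372% of all tested genes). With library totals in place of TMM and with FPKM, 7 of 8 lay above and Srebf2 lay below. At an unadjusted p under 0.05, 3 of the 8 were higher (Idi1, Sqle and Cyp51), against 6.57% of tested genes. DESeq2 also called 0 of 8, against 163 of 16692 genes. Limma on filtered FPKM (pseudocount 1 or 0.1) called 0 of 8, against 23 or 20 of 11093 genes. On unfiltered FPKM limma called 0 of 16739 genes. The median log2 fold change was 0.40, against -0.0059 over all tested genes, of which 49.36% lay above 0. The levels were highest in 1 library, that labelled Trim24-deficient replicate 2. It was the highest of the 4 for 8 of 8 genes, as it was for 27.65% of tested genes. Without it the median was 0.12, against -0.023 over all genes in that fit, and 5 of 8 genes lay above 0. In sorted bulk populations, fewer cells of a type and less RNA per cell cannot be told apart.

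Both libraries labelled Trim24-deficient exceeded both WT libraries for 5 of the 8 genes (Insig1, Hmgcs1, Idi1, Sqle and Cyp51), and for none of the 8 were both below. Over all tested genes 21.4% lay wholly above and 23.0% wholly below. On FPKM, which carry no TMM scaling, 3 of the 8 lay wholly above (Hmgcs1, Idi1 and Cyp51), against 12.5% of 11093 genes with at least 1 FPKM in 2 libraries, and with library totals in place of TMM the same 3 did, against 12.3% of tested genes. For 2 libraries against 2 the smallest two-sided p of an exact permutation test is 0.333. The adjusted p-values below, taken from the quasi-likelihood test of edgeR and adjusted over all tested genes by the Benjamini-Hochberg method, rest on spread shared between genes. Each is given with the log2 ratio (the fitted log2 fold change, knockout-labelled against WT) and its standard error (SE).

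**Figure D1:**
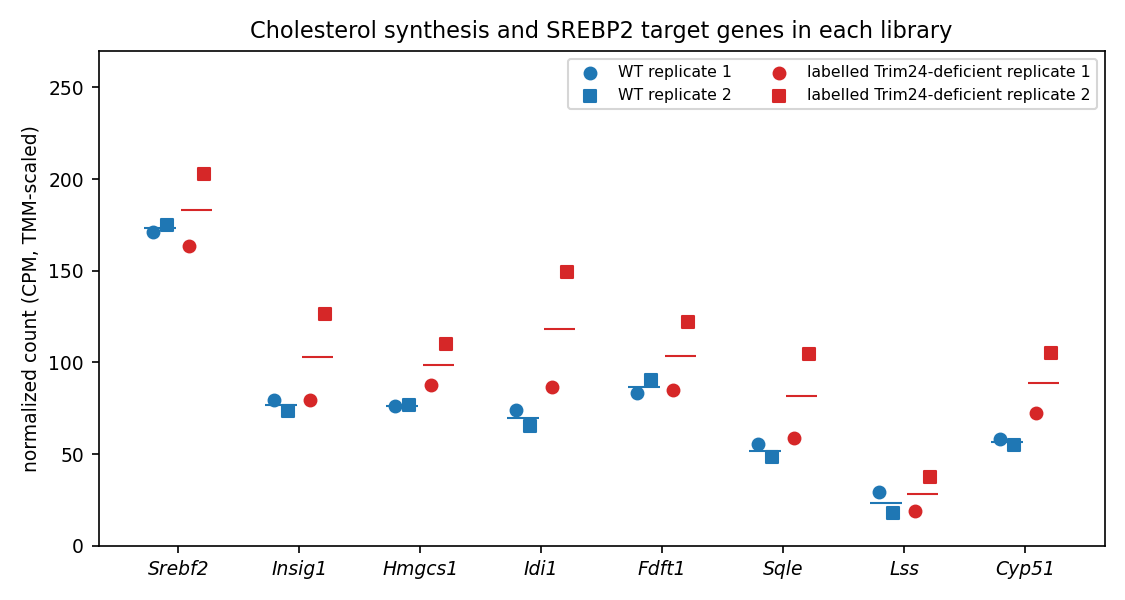
Normalized counts (CPM, TMM-scaled) of the 8 genes in each library, with WT in blue, the libraries labelled Trim24-deficient in red, circles for replicate 1, squares for replicate 2 and a line at each group mean. The red square is the highest point for each gene, from 37.5 CPM for Lss to 203 CPM for Srebf2, while the red circle lies within or below the WT points for Srebf2, Fdft1 and Lss.

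Srebf2, the gene of SREBP2, occupies 82147181 to 82205379 of chromosome 15 (GRCm38, plus strand); exon numbers here and below are those of the longest transcript in the GENCODE M21 basic set, 19 for Srebf2. It was at 171 and 175 CPM in the WT pair (replicates 1 and 2) and at 163 and 203 CPM in replicates 1 and 2 of the knockout-labelled pair. The groups overlapped, since the knockout-labelled library of replicate 1 was the lowest of the 4 and that of replicate 2 the highest. The log2 ratio was 0.08 (SE 0.19, edgeR adjusted p = 0.902). This was less than the log2 difference between the knockout-labelled replicates (0.31) but more than that between the WT replicates (0.03). Mir33, a microRNA gene, lies within Srebf2 and was not analysed here.

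Insig1, which retains SCAP and SREBP2 in the endoplasmic reticulum and is itself an SREBP target, lies on chromosome 5 from 28071363 to 28078662 on the plus strand and has 5 exons. It was at 79.6 and 73.4 CPM in WT TAMs and at 79.7 and 126 CPM in the knockout-labelled pair. Knockout-labelled replicate 1 was level with WT replicate 1, and replicate 2 stood alone. The log2 ratio was 0.43 (SE 0.24, edgeR adjusted p = 0.490).

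Hmgcs1 makes HMG-CoA, an early intermediate of the mevalonate pathway, and Idi1 interconverts the isoprenoid building blocks made from mevalonate. Hmgcs1 (chromosome 13, 119690379 to 119708260, plus strand, 11 exons) was at 75.9 and 76.7 CPM in WT and at 87.5 and 110 CPM in the knockout-labelled pair. Its WT libraries were nearly equal, and both knockout-labelled libraries lay above them, for a log2 ratio of 0.37 (SE 0.19, edgeR adjusted p = 0.464). Idi1 (chromosome 13, 8885501 to 8892451, plus strand, 5 exons) was at 74.1 and 65.1 CPM in WT and at 86.7 and 149 CPM in the knockout-labelled pair. It had the largest fold change of the 8 genes on this scale, with a log2 value of 0.76 (SE 0.26, edgeR adjusted p = 0.273), and within the knockout-labelled pair replicate 2 lay 0.79 above replicate 1 on the log2 scale.

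Fdft1 (squalene synthase) and Sqle (squalene epoxidase) carry out the first steps committed to sterols. Fdft1 (chromosome 14, 63145150 to 63179578, minus strand, 10 exons) was at 83.4 and 90.2 CPM in WT and at 85.0 and 122 CPM in the knockout-labelled pair, where the first lay between the WT values. Its log2 ratio was 0.25 (SE 0.21, edgeR adjusted p = 0.667). Of 3698 exon bases of Fdft1, 774 are shared with exons of Ctsb, a cathepsin gene on the other strand. Ctsb was at 11658 and 11367 CPM in WT and at 13083 and 16235 CPM in the knockout-labelled pair, highest in replicate 2 as Fdft1 was. The sources used here do not say whether counting used strand, and the part of Ctsb reads in the Fdft1 values was not tested. Sqle (chromosome 15, 59315077 to 59331192, plus strand, 11 exons) was at 55.4 and 48.4 CPM in WT and at 58.9 and 104 CPM in the knockout-labelled pair. The gap was small for replicate 1 and large for replicate 2, and the log2 ratio was 0.65 (SE 0.27, edgeR adjusted p = 0.372).

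Lss closes the sterol ring to give lanosterol, and Cyp51 removes a methyl group from it. Lss (chromosome 10, 76531588 to 76557138, plus strand, 22 exons) was at 29.0 and 17.7 CPM in WT and at 18.7 and 37.5 CPM in the knockout-labelled pair. Both groups were wide and overlapped, with a log2 ratio of 0.27 (SE 0.35, edgeR adjusted p = 0.803). Cyp51 (chromosome 5, 4081145 to 4104746, minus strand, 10 exons) was at 58.4 and 54.7 CPM in WT and at 72.5 and 105 CPM in the knockout-labelled pair. It had the widest gap between the groups, 0.31 on the log2 scale from the higher WT to the lower knockout-labelled library, and a log2 ratio of 0.65 (SE 0.22, edgeR adjusted p = 0.273). Cyp51 shares 166 of 3931 exon bases with Akap9 on the other strand, at 27.6 to 33.0 CPM. Lss (381 of 4667 exon bases, with 4930483K19Rik), Hmgcs1 (557 of 3482, with Gm48342) and Idi1 (323 of 3027, with Gm48574) also share exon bases with a neighbouring gene.

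The difference between the 2 knockout-labelled libraries was larger than the difference between the groups for most of the 8 genes. From replicate 1 to replicate 2 of the knockout-labelled pair, the median log2 difference over the 8 genes was 0.60, against -0.0029 over all tested genes, whereas between the WT libraries it was -0.11, against 0.0089. For 6 of the 8 genes the difference between the knockout-labelled libraries exceeded the fitted difference between the groups. The share of all tested genes for which this held was not counted. Set against the WT mean, the median log2 difference of the 8 genes was 0.12 for knockout-labelled replicate 1 and 0.70 for replicate 2.

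With 1 library left out at a time, the calls depended on which. Without knockout-labelled replicate 1, 4 of the 8 genes were called higher (Insig1, Idi1, Sqle and Cyp51, adjusted p = 0.0378, 0.000874, 0.00379 and 0.0105 from edgeR), at log2 fold changes of 0.73 to 1.11, against 3.46% of all 11722 genes called in that fit and 2.18% called higher. Without knockout-labelled replicate 2 none of the 8 was called, against 5.54% of 11770 genes, and Srebf2, Fdft1 and Lss lay below 0. These fits assume that the lone library of a group varies as the pair in the other group does. Without WT replicate 1 or 2 none of the 8 was called, against 0.563% or 0.215% of all genes, and the median was 0.60 or 0.38.

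**Figure D2:**
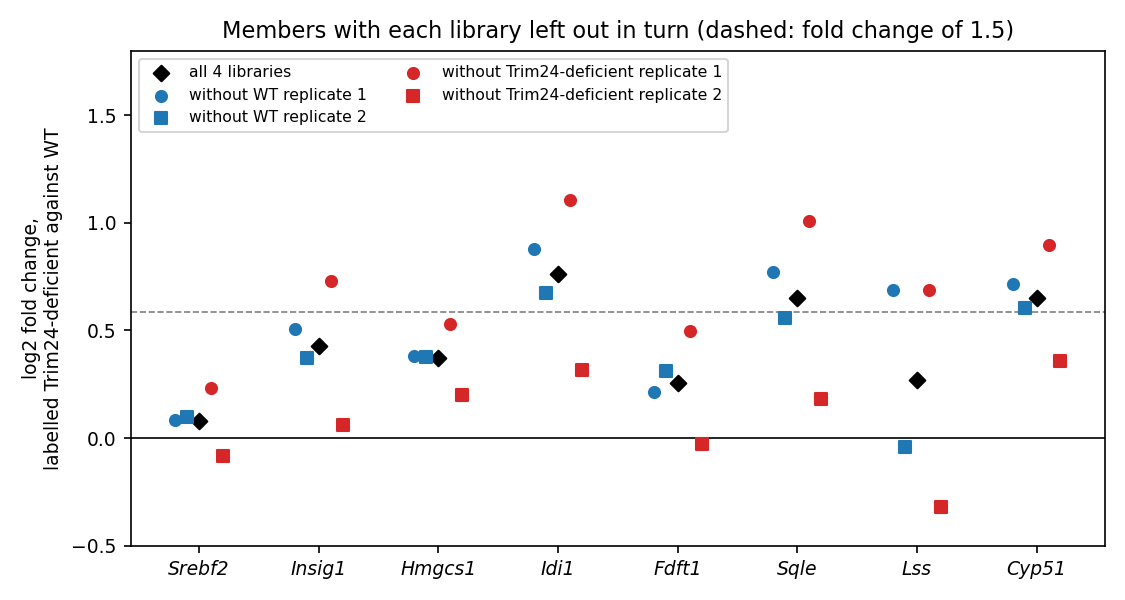
Log2 fold change of each gene (vertical axis, knockout-labelled pair against WT) with all 4 libraries (black) and without each library in turn (blue for WT, red for knockout-labelled libraries, circles for leaving out replicate 1, squares for replicate 2). The red squares, without knockout-labelled replicate 2, lie lowest for every gene, between -0.32 and 0.36, and the dashed line marks a fold change of 1.5.

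SREBP2 acts through short promoter motifs, often beside sites for other factors, so the promoter letters of these genes are shown. RefSeq windows of GRCm38.p6 were given for 6 of the 8 genes (not for Fdft1 and Sqle), and the 250 bases before each start were searched on both strands for 4 motifs: TCACNCCAC, a core of the sterol regulatory element bound by SREBP; CACGTG, an E-box; CCAAT, bound by NF-Y, a partner of SREBP; and GGGCGG, a site for Sp1. The RefSeq start lay 17 to 105 bases inside the GENCODE gene given above for 5 of the 6 (105 for Idi1) and 28 bases before it for Hmgcs1, so positions below count from the RefSeq start. No motif overlapped another in these windows. CCAAT and GGGCGG were each found in 6 of 6 windows, against 33.85% and 32.74% of the 32851 windows of all genes. TCACNCCAC was found in 1 of 6 (Hmgcs1), against 1.05%, and CACGTG in 1 of 6 (Insig1), against 6.02%. A match of letters is a description and says nothing of binding in these cells. Only the exact letters of the 4 motifs were searched for, so sites with other letters were not counted. The windows below are those of Hmgcs1 and Insig1, which held the TCACNCCAC and CACGTG matches, and of 2 others. These 2, Idi1 and Cyp51, had the highest fold changes among the genes with a window. Each window is printed 5′ to 3′ on the strand of the gene, with every motif match in capitals.

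Hmgcs1 (chr13:119690101-119690350, plus strand): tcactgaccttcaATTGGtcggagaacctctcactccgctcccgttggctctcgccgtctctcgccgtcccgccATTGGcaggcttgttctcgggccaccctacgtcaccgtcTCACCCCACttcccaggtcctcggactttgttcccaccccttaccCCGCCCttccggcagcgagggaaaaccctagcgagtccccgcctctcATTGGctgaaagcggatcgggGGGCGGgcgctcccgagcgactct
Insig1 (chr5:28071162-28071411, plus strand): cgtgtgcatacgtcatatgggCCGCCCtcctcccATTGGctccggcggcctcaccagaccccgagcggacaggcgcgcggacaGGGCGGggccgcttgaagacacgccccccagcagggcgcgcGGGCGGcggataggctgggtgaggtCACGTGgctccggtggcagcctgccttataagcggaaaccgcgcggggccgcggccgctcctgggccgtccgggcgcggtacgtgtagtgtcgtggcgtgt
Idi1 (chr13:8885356-8885605, plus strand): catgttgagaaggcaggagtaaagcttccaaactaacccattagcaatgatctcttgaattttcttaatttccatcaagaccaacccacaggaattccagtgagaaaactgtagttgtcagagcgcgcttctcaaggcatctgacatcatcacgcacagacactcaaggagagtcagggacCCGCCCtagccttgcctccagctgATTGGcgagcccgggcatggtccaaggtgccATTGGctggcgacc
Cyp51 (chr5:4104698-4104947, minus strand): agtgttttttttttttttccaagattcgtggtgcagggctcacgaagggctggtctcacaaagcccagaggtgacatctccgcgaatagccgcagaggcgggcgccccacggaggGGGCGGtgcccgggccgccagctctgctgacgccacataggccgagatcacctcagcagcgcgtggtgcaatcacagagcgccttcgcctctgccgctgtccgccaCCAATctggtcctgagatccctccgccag

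In Hmgcs1 the sterol regulatory element began 137 bases before the RefSeq start, with CCAAT boxes at 237, 176 and 45 bases, all read on the other strand. In Insig1 the E-box began 101 bases before the start. Idi1 held CCAAT boxes at 45 and 14 bases, and Cyp51 one at 29 bases, all 3 downstream of the GENCODE start. The other windows, of Srebf2 and Lss, held a CCAAT box at 135 and 62 bases. Among the 14 other synthesis enzymes, 11 had windows, 14 windows in all. By gene, CCAAT was found for 10 of these 11, TCACNCCAC for 0 and CACGTG for 3. By window, CCAAT was found in 71.43% and CACGTG in 21.43%, against 33.85% and 6.02% of the windows of all genes.

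Compared per length of transcript in WT TAMs, Srebf2 was the most abundant of the 8 at 39.4 ± 1.8 FPKM (SD, n = 2), followed by Insig1 at 29.9 ± 0.81, Idi1 at 25.2 ± 1.6, Fdft1 at 24.3 ± 2.1, Hmgcs1 at 22.4 ± 0.84, Sqle at 19.7 ± 1.3, Cyp51 at 13.5 ± 0.21 and Lss at 3.80 ± 1.2. Idi1 overlapped Fdft1 and Fdft1 overlapped Hmgcs1 between the WT libraries, and the other neighbours in this order did not overlap. In the knockout-labelled pair the order on FPKM began with Idi1 at 38.5 ± 14, Srebf2 at 37.6 ± 5.3 and Insig1 at 36.4 ± 11 (SD, n = 2), which overlapped one another, and ended again with Cyp51 at 19.1 ± 4.7 and Lss at 4.14 ± 1.9. On FPKM the mean of Srebf2 was thus lower in the knockout-labelled libraries and that of Insig1 higher. Both differences lay within the spread between the knockout-labelled replicates.

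The 14 other enzymes of the route also had higher means in the knockout-labelled pair. All 14 had a log2 fold change above 0 in the TMM-scaled fit (against 49.36% of tested genes), with a median of 0.60. Of the 14, 10 lay wholly above WT (against 21.4% of tested genes) and 0 were called (against 0.372%). Under library totals, upper-quartile scaling, FPKM or removal of the length trend 13 of 14 lay above 0, with Tm7sf2, a sterol reductase, below. At an unadjusted p under 0.05, 4 were higher, against 6.57% of tested genes: Fdps, Msmo1, Nsdhl and Sc5d. Fdps, which makes farnesyl diphosphate, was at 124 and 102 CPM in WT and at 154 and 250 CPM in the knockout-labelled pair (log2 ratio 0.84, SE 0.25, edgeR adjusted p = 0.223). Msmo1, an oxidase of methyl groups on the sterol ring, was at 65.1 and 67.8 CPM in WT and at 94.8 and 142 CPM in the knockout-labelled pair (log2 ratio 0.83, SE 0.22, edgeR adjusted p = 0.195). In both genes each knockout-labelled library exceeded both WT libraries and replicate 2 was the higher of the pair.

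Sc5d, a sterol desaturase, was at 31.8 and 28.9 CPM in WT and at 45.7 and 48.8 CPM in the knockout-labelled pair, so that here the knockout-labelled libraries were close to each other (log2 ratio 0.64, SE 0.20, edgeR adjusted p = 0.234). Acat2, the cytosolic thiolase at the head of the route, showed the opposite layout, with 17.0 and 70.1 CPM in the knockout-labelled libraries around 26.8 and 33.0 CPM in WT. Knockout-labelled replicate 2 was the highest of the 4 for 11 of these 14 enzymes. Without it, 10 of 14 lay above 0, with a median of 0.15, and none was called. Nsdhl and Ebp are X-linked, and their log2 fold changes were 0.64 and 0.26.

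**Figure D3:**
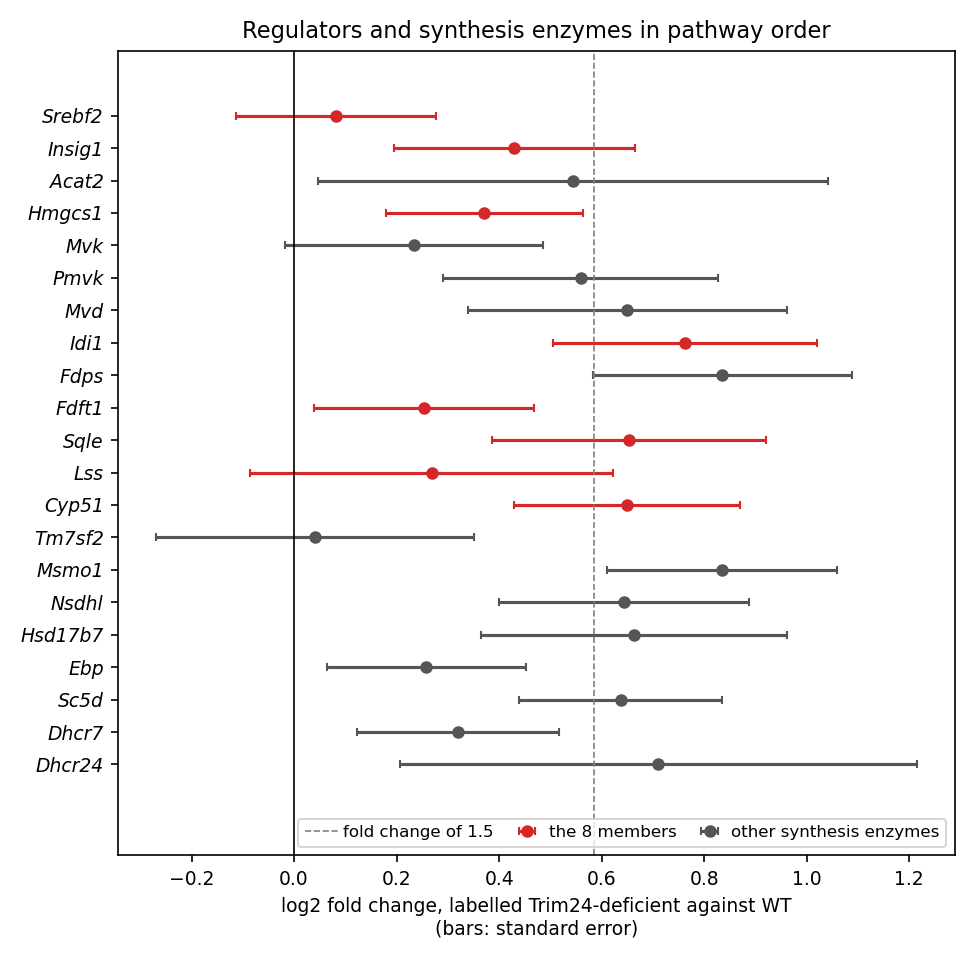
Log2 fold changes with standard errors (knockout-labelled pair against WT, TMM-scaled edgeR fit) of the regulators Srebf2 and Insig1 and of 19 enzymes in pathway order, with the 8 genes in red and 13 of the other enzymes in grey. Points run from 0.04 for Tm7sf2 to 0.84 for Fdps, and none of these genes passed the adjusted test.

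Srebf1, the gene of SREBP1, and 4 genes that retain, carry or cut SREBP lay on both sides of 0. Of these 5 (Srebf1, Scap, Insig2, Mbtps1 and Mbtps2), 0 were called. Above 0 lay 2 (against 49.36% of tested genes) and below it 3, and the median log2 fold change was -0.03. Scap, the sterol sensor, was at 21.2 and 27.6 CPM in WT and at 25.9 and 23.4 CPM in the knockout-labelled pair. Mbtps2, an X-linked gene for the site-2 protease, was at 26.8 and 31.8 CPM in WT and at 21.7 and 16.0 CPM in the knockout-labelled libraries, wholly below (log2 ratio -0.64, SE 0.25, edgeR adjusted p = 0.349).

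Of 6 other SREBP2 targets in uptake and transport, 5 were tested and 0 were called, with a median log2 fold change of 0.23. Tmem97, a sterol-binding membrane protein, was at 74.1 and 69.8 CPM in WT and at 62.9 and 97.2 CPM in the knockout-labelled pair, so the groups overlapped (log2 ratio 0.15, SE 0.23, edgeR adjusted p = 0.831). Of 10 fatty acid genes controlled by SREBP1, 8 were tested and 0 were called. Above 0 lay 5 of these 8, against 49.36% of tested genes, with a median of 0.01. Acly, which makes cytosolic acetyl-CoA for both routes, was at 245 and 184 CPM in WT and at 253 and 339 CPM in the knockout-labelled pair, whereas Fasn, the fatty acid synthase, was at 51.0 and 45.5 CPM and at 36.5 and 48.2 CPM.

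Of 13 genes of cholesterol efflux and LXR signalling, 0 were called, with 6 above 0 (against 49.36% of tested genes) and 7 below. Nr1h3, the gene of LXR alpha, was at 36.9 and 24.5 CPM in WT and at 89.4 and 48.4 CPM in the knockout-labelled pair, both above WT (log2 ratio 1.16, SE 0.31, edgeR adjusted p = 0.195), with replicate 1 the higher. The exporter Abca1 was at 96.5 and 137 CPM in WT and at 92.4 and 75.0 CPM in the knockout-labelled libraries, both below WT (log2 ratio -0.48, SE 0.22, edgeR adjusted p = 0.421). Its relative Abcg1 was at 213 and 194 CPM in WT and at 357 and 200 CPM in the knockout-labelled libraries. Ch25h, which makes the oxysterol that holds SREBP2 back through INSIG, was at 110 and 119 CPM in WT and at 139 and 81.2 CPM in the knockout-labelled libraries, where the groups overlapped. Without knockout-labelled replicate 2, 2 of 46 genes in the pathway lists were called higher (Nr1h3 and Abcg1), against 3.74% of all genes in that fit.

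**Figure D4:**
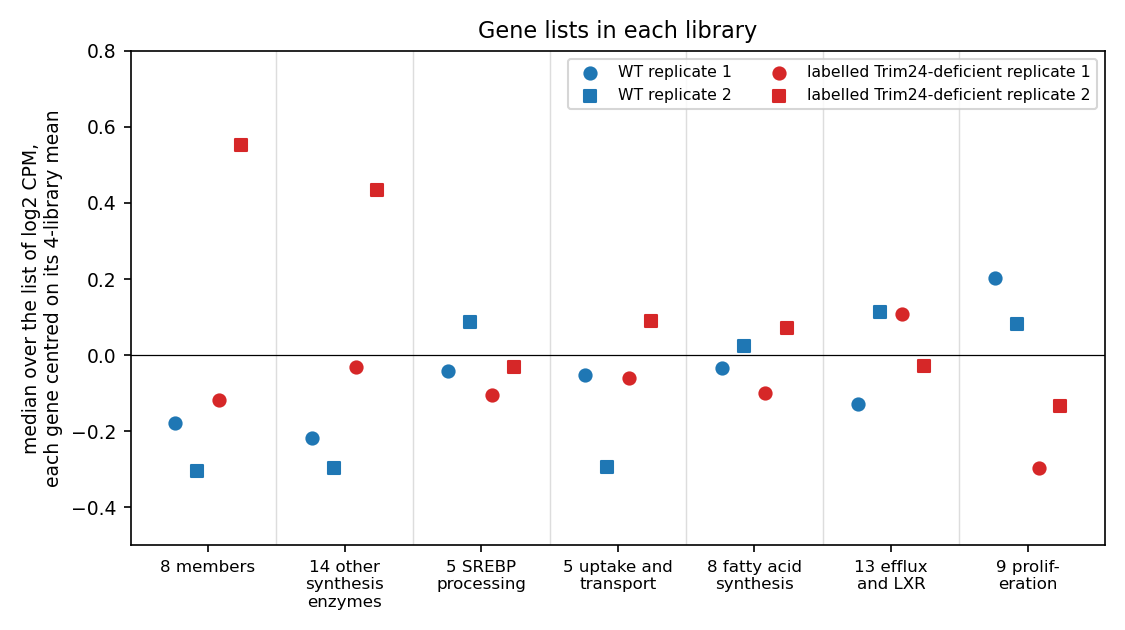
Median log2 CPM over the 8 genes, the 5 other pathway lists and the proliferation list, with every gene centred on its mean over the 4 libraries, for WT (blue) and the knockout-labelled pair (red), circles for replicate 1 and squares for replicate 2. The red square stands at 0.55 for the 8 genes, at 0.43 for the 14 other enzymes and between -0.13 and 0.09 for the other lists plotted, while the neutrophil list, which is not plotted, stands at 1.51 in the same library.

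Markers of other cell types also differed between the libraries, and the summed level of the neutrophil list was highest in the library where the 8 genes were highest. Neutrophil markers (S100a8, S100a9, Ly6g, Retnlg and Mmp8) summed to 33.4 and 40.9 CPM in WT and to 74.2 and 213 CPM in replicates 1 and 2 of the knockout-labelled pair. The 3 of these 5 that passed the filter lay above 0, none was called, and none of the 5 was at 0 in all libraries. Ly6g, which defines neutrophils, was at 0 in each WT library, at 1.91 CPM in knockout-labelled replicate 1 and at 0.82 CPM in replicate 2. T and NK cell markers summed to 113 CPM in knockout-labelled replicate 1 and to 32.8 to 52.4 CPM in the other libraries. B cell markers summed to 1.02 to 3.12 CPM, fibroblast and endothelial markers to 5.84 to 17.3 CPM and dendritic cell markers to 35.3 to 63.7 CPM. Of the dendritic genes 4 were tested and 0 were called, with 2 above 0 and 2 below. The latter, Flt3 and Cd209a, lay wholly below WT, against 23.0% of tested genes. Xcr1 was at 22.4 and 16.2 CPM in WT and at 46.3 and 13.3 CPM in the knockout-labelled pair. All 9 proliferation genes lay below 0 in log2 fold change, with 1 called lower (Mki67, log2 ratio -1.18, SE 0.20, edgeR adjusted p = 0.0453), and they summed to 1331 and 1293 CPM in WT and to 898 and 1016 CPM in the knockout-labelled libraries. The part of these cells, and of the melanoma RNA given above, in the levels of the cholesterol genes was not tested.

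Shorter transcripts tended towards higher values in the knockout-labelled pair, with a Spearman correlation of -0.249 between log2 fold change and length across 11302 genes, which are not independent replicates. The 8 genes were longer than the typical tested gene, at a median of 3630 against 2810 bases. With each library's trend on length taken out, all 8 lay above 0, with a median log2 fold change of 0.44.

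Of the 5 genes whose values over the 4 libraries lay nearest to the median profile of the 8, by root mean square distance of centred log2 CPM among 9115 genes outside the lists whose mean log2 CPM was 3 or more, 4 are given here: Uqcrc1 (0.018), Uqcr11 (0.032), Psmb6 (0.038) and Trp53rka (0.041). Uqcrc1 and Uqcr11 encode subunits of respiratory complex III and Psmb6 a proteasome subunit. Uqcrc1 was at 509 and 476 CPM in WT and at 530 and 850 CPM in the knockout-labelled pair, again with replicate 2 alone above the rest. The 8 genes themselves lay at a median distance of 0.137, from 0.037 for Insig1 to 0.261 for Lss, and 186 of the 9115 other genes lay nearer than that median.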

How the data were processed

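Per the study's methods and the submitters' processing notes, alignment used Bowtie against GRCm38 (mm10) and quantification used RSEM, with versions not given in the sources used here. For each library the authors deposited the expected count of every detected gene, without normalization. The authors also deposited FPKM, scaled to transcript length and library total, and a transcript length; genes at 0 are not listed and were set to 0. Symbols were matched by Entrez number to RefSeq for 16698 of 16739 genes, and promoter windows are RefSeq's for GRCm38.p6. Expected counts were rounded, filtered (filterByExpr), scaled by TMM and tested by label with edgeR 4.0.16 (glmQLFit, glmQLFTest) in R 4.3.3, with no block. A call needed more than 1.5-fold and an adjusted p (Benjamini-Hochberg) below 0.05, the thresholds in the study's methods. Standard errors are the log2 fold change divided by the square root of F. Replicates were distinct libraries (chi-square per degree of freedom 8.57 in WT and 19.2 in the knockout-labelled pair).

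The members and lists were chosen with earlier results of these data known. Named genes are the members, genes of the fixed lists, Trim24, sex-linked genes and the 5 genes nearest in profile (mean log2 CPM 3 or more); centring used log2(CPM + 0.5). Alternatives were other scalings and filters, DESeq2 1.42.0, limma 3.58.1 on log2 FPKM with a pseudocount of 1 or 0.1, the replicate block, offsets for length and each library left out. Scripts were tested on simulated data. Some genes of the lists, and 1 of the nearest in profile, are counted but not reported by name here.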

Additional observations from a re-analysis of the deposited data

How the results depend on the processing

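Over the 14 alternatives to the TMM-scaled edgeR fit, the median log2 fold change of the 8 cholesterol genes stayed above 0, at 0.12 to 0.71 with each library left out and 0.225 or more otherwise (lowest with limma on FPKM). Scaling by library totals moved the median of all genes from -0.0059 to -0.15, and relative to that median the 8 genes stood at 0.405. Srebf2 changed sign, to -0.068 with library totals, -0.073 with log2(FPKM + 1), filtered or for all genes, -0.075 with log2(FPKM + 0.1) and -0.082 without Trim24-deficient replicate 2; Fdft1 was at -0.029 without that library, and Lss at -0.32 without it and at -0.043 without WT replicate 2. With each library left out, Srebf2 ran from -0.082 to 0.23, Fdft1 from -0.029 to 0.50 and Lss from -0.32 to 0.69. The libraries of both groups carry replicate numbers 1 and 2, which no source says pair them, and deviations from group means correlated at 0.165 across genes between libraries of the same number. With the replicate number as a block, 633 of 11302 tested genes were called. They included 1 of the 8 genes (Idi1, log2 fold change 0.72, adjusted p = 0.0219 from edgeR). They also included 3 of 45 tested pathway genes (Fdps, Msmo1 and Nr1h3). With each library left out, 0 to 4 of the 8 genes and 0 to 5 of the pathway genes were called. Over all genes, 42 were called, against 163 with DESeq2, 23 or 20 with limma on filtered FPKM (pseudocount 1 or 0.1), 0 with limma on all genes, 633 with the block and 25 to 652 with each library left out. The fits with a library left out rest on 1 library in a group, and their calls over all genes moved too. Their counts for the 8 genes and the pathway genes therefore depend on that 1 library. Whether these counts exceed those over all genes was not tested. The cause of these moves was not tested. The 2 libraries per group limit every comparison, and members with fewer counts, such as Lss, are the least precise.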
